A study of Mus musculus with 22 samples.

Results

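The hnRNP A1 footprints of 3 mice with mild EAE were compared, gene by gene, with those of 3 naïve mice. These were 6 of the 10 spinal cords with a deposited footprint list, chosen by their labels alone: the EAE mice with clinical scores from 1.0 to 1.5, and all naïve mice. The 4 mice with severe EAE (scores 2.5 to 3.0) were kept out of every choice and are used only at the end. EAE, experimental autoimmune encephalomyelitis, is an inflammatory demyelinating disease that follows immunization with a myelin peptide. All mice were female wild-type C57Bl/6 animals. EAE was induced with MOG peptide 35-55 in complete Freund's adjuvant with pertussis toxin, and EAE mice were killed 15 days after clinical onset. Age at immunization was given as 12 weeks in one text of the labels and as 8 weeks in another, and naïve mice were age-matched, so that disease and the immunization itself cannot be told apart here. Mild EAE mice 1, 2 and 3 are the animals numbered 3, 7 and 4 in the labels, with scores of 1.5, 1.0 and 1.5, and naïve mice 1, 2 and 3 carry those numbers in the labels.

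hnRNP A1 is an RNA-binding protein of the nucleus that shuttles to the cytoplasm. It takes part in splice site choice, RNA export, stability and translation, and it is best known for binding UAG-containing RNA. In CLIPseq, UV light crosslinks protein to RNA, the protein is pulled down with an antibody, and the attached RNA is sequenced. A footprint here is a genome interval covered by RNA of the immunoprecipitate and absent from the matched input and the pooled IgG control. Naïve and EAE mice had separate IgG pools, and which pool was subtracted from which mouse is not stated. The subtracted background may thus differ between the groups compared here, and its part in the gene-level differences was not tested. The lists hold positions only, so the depth behind a footprint is unknown, and a gene without a footprint is one where no site was retained. The input libraries were not analysed here, so whether a gene's RNA itself differed between groups was not tested. Spinal cord is also a mixture of cells, and fewer cells of a type and less RNA per cell cannot be told apart in it.

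The genes footprinted in all 3 mice of one group and in none of the other included Abca1, Csf1r, Mpeg1 and Cd74 on the mild EAE side and Cpne9, Hmcn1, Kansl3 and Elavl4 on the naïve side. Footprints of different mice in such a gene did not always lie at the same bases. The longest stretch of sequence covered in all 3 mice is printed for the first genes of each side, 3 and 4 in number and in order of footprint number, that had one outside UTRs of at most 300 nt and could be printed. They are shown because a site was retained there in every mouse of one group, in a gene where none was retained in the other. Each is given in the sense of the gene, 5′ to 3′, read from the RefSeq copy of GRCm38, with every TAG (UAG in RNA) in capitals.
Abca1, mild EAE, coding sequence, chr4:53069827-53069905, minus strand: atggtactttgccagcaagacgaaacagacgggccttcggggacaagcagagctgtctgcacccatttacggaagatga
Tgfbr1, mild EAE, intron, chr4:47388361-47388506, plus strand: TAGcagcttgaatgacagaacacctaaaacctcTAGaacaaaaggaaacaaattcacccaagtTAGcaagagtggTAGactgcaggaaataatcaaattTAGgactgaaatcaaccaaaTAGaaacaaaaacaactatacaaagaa
Ctsz, mild EAE, coding sequence, chr2:174428578-174428661, minus strand: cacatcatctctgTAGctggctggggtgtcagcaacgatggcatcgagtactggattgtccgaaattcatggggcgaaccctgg
Bnip3l, naïve, coding sequence, chr14:66989445-66989509, minus strand: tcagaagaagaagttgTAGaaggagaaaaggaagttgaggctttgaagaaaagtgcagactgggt
Mapk11, naïve, coding sequence, chr15:89145818-89145916, minus strand: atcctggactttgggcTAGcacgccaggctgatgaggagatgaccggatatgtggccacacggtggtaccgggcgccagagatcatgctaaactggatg
Rac3, naïve, coding sequence, chr11:120723306-120723340, plus strand: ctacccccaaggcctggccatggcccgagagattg
Col26a1, naïve, intron, chr5:136810172-136810260, minus strand: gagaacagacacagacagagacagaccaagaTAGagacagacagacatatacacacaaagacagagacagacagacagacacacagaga

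The Tgfbr1 stretch held 6 TAG and the 4 stretches of Ctsz, Bnip3l, Mapk11 and Col26a1 held 1 each, whereas those of Abca1 and Rac3 held 0. The counts that follow take in all stretches covered in all 3 mice of a group, UTRs included. Of these, 28 of 89 (31.5%) in the mild EAE genes and 8 of 14 (57.1%) in the naïve genes held a TAG. A stretch shared by overlapping genes was counted once for each gene. In the 1283 genes footprinted in all 6 mice, the share was 33.9% of 1604 stretches common to the mild EAE mice and 39.4% of 1019 common to the naïve mice. Median lengths were 94 and 86 nt in the 2 sets and 72 and 78 nt in the genes of all 6 mice, and only the sense strand was searched. Both intronic stretches lay in repeats, with 95.2% of the Tgfbr1 bases and 100% of the Col26a1 bases soft-masked in the genome. A stretch of all 3 mice was present in 75 of the 146 mild EAE genes (51.4%) and in 12 of the 95 naïve genes (12.6%). For the genes of all 6 mice the shares were 53.3% and 37.6%.

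Neither group had more footprints throughout, and list length varied more among mild EAE mice (SD 7488 footprints, against 206 among naïve mice). The lists held 17119, 17454 and 17494 footprints in naïve mice and 14534, 24433 and 9751 in mild EAE mice, with the mild EAE mice both highest and lowest. Footprints in genes made up 90.2%, 90.2% and 91.6% of them in naïve mice and 94.0%, 92.8% and 90.5% in mild EAE mice, a difference of 1.78 percentage points (two-sided exact permutation test, p = 0.2, 0.3 after Benjamini-Hochberg adjustment over 3 measures). Naïve mice footprinted 4907, 6473 and 5434 genes, and mild EAE mice 5157, 7063 and 3811 (exact permutation p = 0.9, adjusted 0.9).

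The gene hit by a typical footprint, taken as the longest where several overlapped, was shorter in every mild EAE mouse. Its median annotated span was 92.3, 93.4 and 82.6 kb in naïve mice and 39.9, 61.6 and 59.3 kb in mild EAE mice, a mean difference of -35.8 kb (mild EAE minus naïve) with no overlap between groups (exact permutation p = 0.1, the smallest that 3 mice against 3 allow, adjusted 0.3). Genes of 200 kb to 1 Mb took 24.9%, 25.5% and 22.4% of the in-gene footprints of naïve mice and 10.9%, 17.2% and 18.6% of those of mild EAE mice. Genes of 1 Mb or more took 9.97%, 7.18% and 5.31% against 1.57%, 3.85% and 4.49%. The exonic share moved with this, since 62.4%, 59.4% and 72.9% of the in-gene footprints of naïve mice touched an annotated exon, against 89.6%, 82.3% and 77.5% in mild EAE mice (exact permutation p = 0.1). Its part in the gene-level results was not tested beyond the exon-only values given with them.

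**Figure D1:**
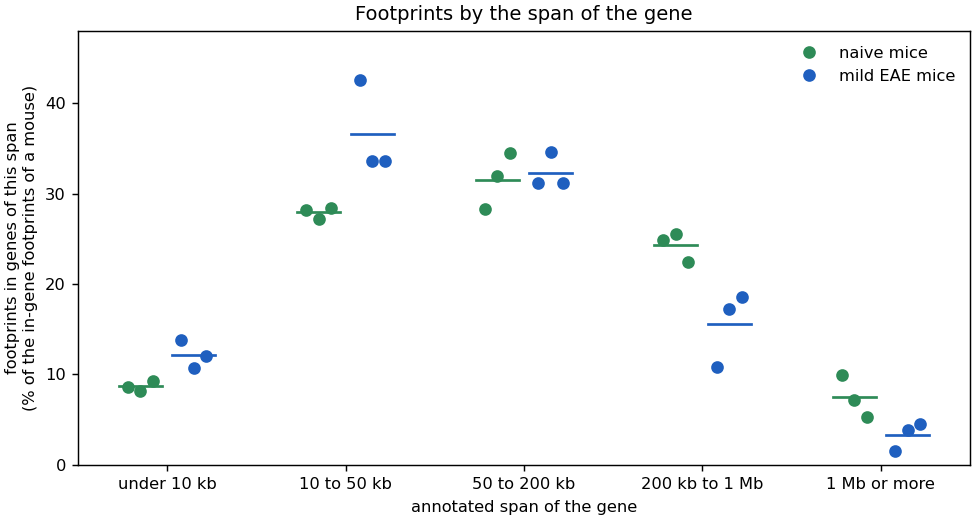
Share of each mouse's in-gene footprints (vertical axis, %) by the annotated span of the gene (horizontal axis), 1 point per mouse and a line at the group mean of 3. The groups do not overlap in 4 of the 5 span classes: mild EAE mice lie above naïve mice under 50 kb and below them from 200 kb upward.

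Across the 6 mice, 12528 of 55450 annotated genes carried a footprint in at least 1 mouse and 1283 in all 6. In all 3 mild EAE mice and no naïve mouse, 146 genes were footprinted (1.17% of the 12528). In all 3 naïve mice and no mild EAE mouse, 95 were (0.758%). Most genes were seen in few mice, with 2638 in a single naïve mouse and 2091 in a single mild EAE mouse. Next to the 2 sets stood 283 genes of all 3 mild EAE and 1 naïve mouse, 553 of 2 mild EAE and no naïve mice, 349 of all 3 naïve and 1 mild EAE mouse, and 556 of 2 naïve and no mild EAE mice. With at least 2 footprints required in each mouse, 42 and 14 genes were left. When any 1 mouse was left out, the sets grew to between 235 and 492 and between 140 and 329 genes, and the largest mild EAE set arose without mild EAE mouse 3, the mouse with the shortest list.

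**Figure D2:**
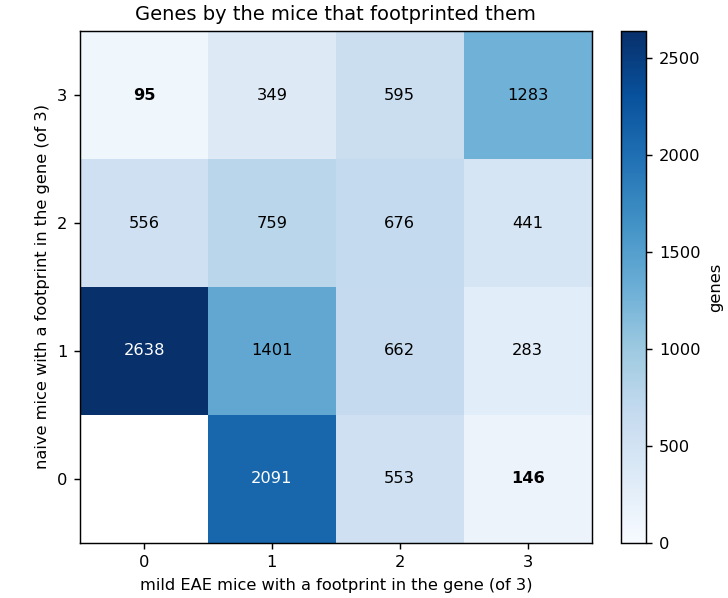
Number of genes (cell values and colour) by how many of the 3 mild EAE mice (horizontal axis) and of the 3 naïve mice (vertical axis) had a footprint in the gene. The 146 genes of all mild EAE and no naïve mice and the 95 of the opposite kind are in bold, beside 1283 genes of all 6 mice.

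The 2 sets differed in make-up. The mild EAE genes had a median span of 9.48 kb, and 86.7% of their footprints touched an exon. For the naïve genes these values were 54.1 kb and 50.2%, and for all footprinted genes the span was 24.7 kb, with exons touched by 77.6% of mild EAE and 60.4% of naïve footprints. Among the mild EAE genes, 92 were protein-coding and 34 (23.3%) were processed pseudogenes, which are intronless copies of mRNAs. Of the naïve genes 76 were protein-coding and 3 (3.16%) processed pseudogenes, while processed pseudogenes were 9.83% of all footprinted genes. A contig from a parent mRNA can align to such a copy, so these entries are uncertain as genes. Counting exon-touching footprints alone, 145 mild EAE genes (133 of them among the 146) and 42 naïve genes (33 of them among the 95) had the pattern.

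Among the named genes with the most footprints in the mild EAE set were genes of cholesterol efflux, macrophage identity and antigen presentation. Abca1 encodes the membrane transporter that moves cholesterol and phospholipid out of cells onto apolipoproteins. It had no footprint in any naïve mouse and 12, 25 and 6 in mild EAE mice 1, 2 and 3, covering 931, 2558 and 409 nt of its 129109 nt on chr4:53030787-53159895. Of these 43 footprints, 39 touched coding sequence, 3 lay in a UTR and 1 in an intron, so that annotated exons were covered in all 3 mice. Spliced and unspliced RNA were not told apart.

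Arap1, a protein that switches off small GTPases of membrane traffic and the actin cytoskeleton, had 6, 16 and 3 footprints in mild EAE mice and none in naïve mice. Csf1r, the receptor on which microglia and macrophages depend, had 8, 14 and 1, with 22 of the 23 in coding sequence. Dock2, a Rac activator of white blood cells, had 5, 8 and 2. All of these stood highest in mild EAE mouse 2, the mouse with the longest list, and lowest in mouse 3, the one with the shortest. Tgfbr1, a receptor chain for transforming growth factor beta, was an exception to this order with 2, 6 and 7 footprints, of which 12 of 15 were intronic.

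The rest were lower in number. Tns3, an adaptor at cell-matrix adhesions, had 4, 5 and 4 footprints, and Igfbp5, a binding protein for insulin-like growth factors, had 2, 5 and 4. Mpeg1, a pore-forming protein of macrophages, had 4, 5 and 1. Cd74, the invariant chain of MHC class II, had 5, 3 and 2. None of these genes was footprinted in any naïve mouse.

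On the naïve side the leading genes were of mixed function, with neuronal and adhesion genes among them. Cpne9, of the copine family of calcium-dependent membrane-binding proteins, was the most even, with 5, 4 and 5 footprints in naïve mice 1, 2 and 3, and all 14 in coding sequence (chr6:113282307-113305627). Hmcn1, an extracellular matrix protein, had 1, 5 and 8, and Kansl3, a subunit of a histone acetyltransferase complex, had 4, 4 and 3. No mild EAE mouse had a footprint in any of these, and exonic footprints made up most of them.

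Intronic footprints prevailed in other genes of the set. Cdh13, a cadherin without a cytoplasmic domain, and Nsmce2, a SUMO ligase of DNA repair, each had 3, 6 and 1 footprints, all 20 of them intronic. Elavl4, a neuronal RNA-binding protein that stabilizes mRNAs, had 3, 2 and 3, again all intronic. Hecw2, a ubiquitin ligase, had 2, 2 and 4, of which 7 of 8 were intronic. Kif26b, a kinesin family member, had 3, 7 and 1, with 6 of 11 intronic.

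The last 4 of the naïve genes leaned on 1 mouse or overlapped other genes. Rhoq, a small GTPase, had 8, 1 and 1 footprints, and Pigk, a subunit of the enzyme that attaches GPI anchors, had 1, 1 and 6. Cblb, a ubiquitin ligase that dampens lymphocyte activation, had 3, 2 and 5. Eng, an endothelial co-receptor for transforming growth factor beta, had 1, 6 and 2. Rhoq, Eng and Pigk share part of their span with another protein-coding gene, as do Csf1r and Dock2 in the mild EAE set, and the unstranded lists do not tell such genes apart. With footprints that overlapped exactly 1 gene, 95 of the 146 mild EAE genes and 73 of the 95 naïve genes kept their pattern.

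**Figure D3:**
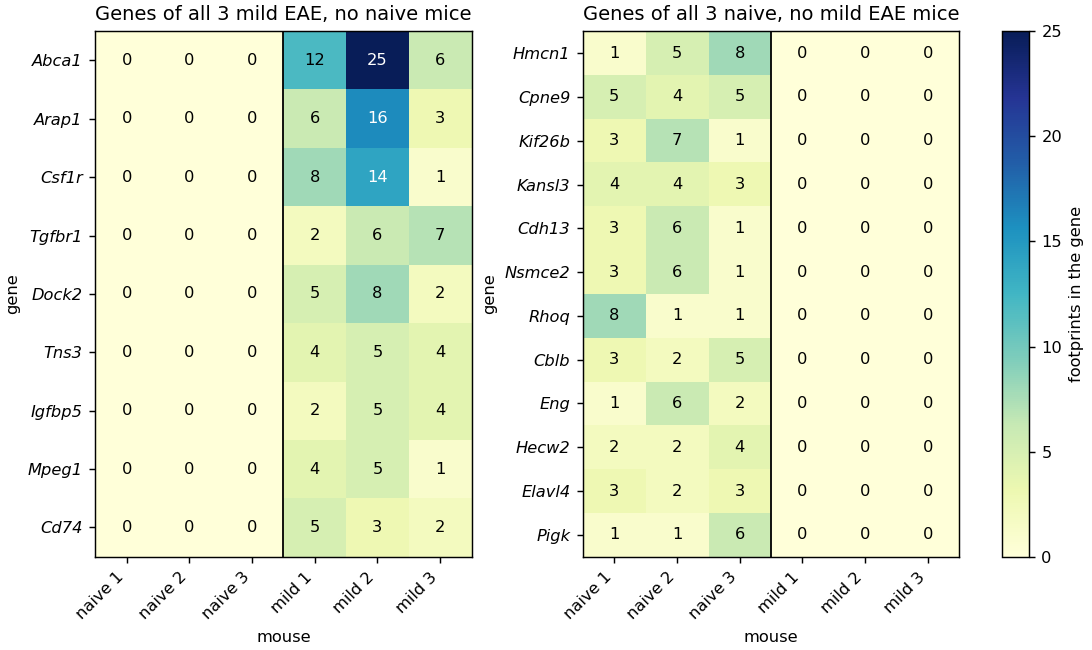
Footprints (cell values and colour) in each of the 6 mice (columns) for the named genes with the most footprints in the set of all 3 mild EAE and no naïve mice (left, 9 genes) and of all 3 naïve and no mild EAE mice (right, 12 genes). Abca1 has the highest counts, 12, 25 and 6, and Cpne9 the most even, 5, 4 and 5.

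The genes whose sequences are printed above and that stand outside these genes had fewer footprints. Ctsz, a lysosomal cathepsin, had 5, 3 and 2 in mild EAE mice. Bnip3l, a receptor for the removal of mitochondria, had 3, 2 and 3 in naïve mice, and its pseudogene Bnip3l-ps was in the naïve set as well, with 1 in each, so that footprints of the gene and its copy are uncertain. Mapk11, a p38 kinase, had 2, 1 and 4, Rac3, a Rac GTPase of neurons, 2, 2 and 1, and Col26a1, a collagen, 1, 2 and 1.

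Each gene's footprints were then taken as a share, per 10000 in-gene footprints of the mouse, and log2(share + 1) was compared with limma over 5289 genes with a footprint in at least 3 mice. The differences on this scale understate changes of genes with few footprints. No gene passed an adjusted p of 0.05. Before adjustment 543 genes had p under 0.05, of which 309 were higher in mild EAE (5.84% of genes tested) and 234 lower (4.42%). The median difference over all tested genes was 0.03 on the log2 scale. In 471 genes (8.91%) every mild EAE mouse lay above every naïve mouse, and in 361 (6.83%) below. Genes of the 2 sets separate the groups by their choice and are all inside these counts. Without them, 163 genes were higher and 139 lower at p under 0.05, and in 325 and 266 genes every mild EAE mouse lay above or below every naïve mouse.

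The lowest adjusted p, 0.062, was that of Abca1. Its share was 0 in all naïve mice and 8.87 ± 2.11 per 10000 in mild EAE mice (SD, n = 3), a difference of 3.28 ± 0.42 (SE) on the log2(share + 1) scale. As a gene of the mild EAE set it entered the test through the mild EAE mice alone, so its p is given as a description and supports nothing. The same holds for Arap1 and Cpne9, which follow by their p. The second lowest adjusted p was 0.233, shared by many genes.

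Next in order of p on the mild EAE side, none past the threshold, were Arap1, C3, Usp7 and Grn. C3, the central protein of the complement cascade, had 4, 3 and 2 footprints in naïve mice and 33, 17 and 16 in mild EAE mice, all 75 of them in coding sequence. Its share was 1.91 ± 0.67 against 16.6 ± 8.43 per 10000 (limma adjusted p = 0.233). Usp7, a deubiquitinase that acts on p53 and its ligase Mdm2, had 1, 1 and 2 against 11, 9 and 7. Grn, progranulin, a lysosomal and secreted protein of microglia and neurons, had 0, 1 and 0 against 5, 8 and 4. In these 3 genes every mild EAE mouse was above every naïve mouse in number as well as in share. C3 passed the threshold among genes of at least 5 mice, with an adjusted p of 0.0053, and with each naïve mouse left out in turn (0.0033 to 0.046), but with no mild EAE mouse left out. The SE of its difference was 0.485 in the main fit and 0.495 among genes of at least 5 mice. With a naïve mouse left out it was 0.539 to 0.595. These passes thus came with a larger SE and are no stronger support than the main fit.

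On the naïve side the lowest p belonged among others to Robo1, Dcc, Ccser1 and Cpne9, again without passing. Robo1, an axon guidance receptor, had 23, 15 and 17 against 2, 8 and 2. Dcc, the netrin receptor of growing axons, had 12, 7 and 5 against 0, 2 and 0, and Ccser1, a large gene of little known function, 20, 18 and 10 against 0, 8 and 0. In naïve mice 50 of 55 Robo1, 24 of 24 Dcc and 48 of 48 Ccser1 footprints were intronic. Robo1 passed the threshold among genes of at least 5 mice (limma adjusted p = 0.045), and Ccser1 did with all footprinted genes tested (0.015). Ccser1 also passed with each naïve mouse left out in turn, and not with a mild EAE mouse left out. As with C3, no clear drop in SE went with these passes. The SE of Robo1 was 0.417 in the main fit and 0.489 among genes of at least 5 mice. That of Ccser1 was 0.619 in the main fit and 0.583 with all footprinted genes.

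Gene classes were described by 22 lists of named genes and by the share of in-gene footprints that fell in each list. In 13 lists the 2 groups did not overlap, with 9 higher and 4 lower in mild EAE. With exon-touching footprints only, 6 lists remained apart, 5 higher and 1 lower. The T and B cell list is counted among the 9 and among the 5, although only 3 of its 27 genes were footprinted. It held 0, 1 and 0 footprints in naïve mice and 8, 3 and 2 in mild EAE mice, most of them in Cd74. Of the 12528 footprinted genes, 3.76% had every mild EAE mouse above every naïve mouse and 2.88% the reverse. Of the 5289 genes tested, 8.91% and 6.83% did. These are rates of single genes and not of sums over a list, so they give no background for the 13 lists. How often a list would separate the groups was not tested.

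Complement, microglial and lysosomal RNAs took a larger share of the footprints of every mild EAE mouse. Genes of complement and Fc receptors, which tag and take up debris, took 0.078%, 0.064% and 0.094% of in-gene footprints in naïve mice and 0.644%, 0.335% and 0.499% in mild EAE mice, a mean 6.29 times as high. Of 20 listed genes 14 were footprinted in some mouse, and in 6 of them every mild EAE mouse was above every naïve mouse. C4b, another complement component, had 8, 3 and 13 footprints in naïve mice and 32, 29 and 18 in mild EAE mice. C1qa, a chain of the C1q recognition molecule, had none in naïve mice and 3, 2 and 2 in mild EAE mice, and Serping1, the C1 inhibitor, none against 1, 3 and 3. The whole list held 12, 10 and 15 footprints in naïve mice and 88, 76 and 44 in mild EAE mice. C3, with 4, 3 and 2 against 33, 17 and 16, and C4b made up most of them. The summed level of this list therefore rested mainly on these genes. The group difference of this list was as plain on exons alone, 0.113% ± 0.024 against 0.576% ± 0.160 (SD, n = 3).

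The list of microglia and macrophage genes took 0.0389%, 0.0445% and 0.0374% in naïve mice and 0.337%, 0.194% and 0.193% in mild EAE mice, 5.99 times as high. Csf1r, Mpeg1, Gpnmb and Laptm5 were among the members in the mild EAE set. Gpnmb, a glycoprotein of lipid-laden phagocytes, had 5, 3 and 2 footprints, and Laptm5, a lysosomal membrane protein of blood cells, had 1, 2 and 2. The groups were in the opposite order for Cx3cr1, the fractalkine receptor of resting microglia, which had 2, 5 and 3 in naïve mice and 0, 1 and 1 in mild EAE mice. P2ry12, another gene of resting microglia, had 3, 0 and 2 against 0, 0 and 2, and 7 of the 25 listed genes, Tmem119 and Aif1 among them, had none in any mouse. The summed level of the list therefore rested on a part of its genes. A shorter list of 8 microglia and macrophage markers held 5, 5 and 5 footprints in naïve mice and 16, 21 and 4 in mild EAE mice. As a share these were 0.0324%, 0.0318% and 0.0312% against 0.117%, 0.0926% and 0.0453%, without overlap. Of its 3 tested members, 1 had every mild EAE mouse above every naïve mouse and 1 the reverse, with a median log2 difference of -0.34.

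Phagocyte lysosome genes took 0.0971% to 0.133% of in-gene footprints in naïve mice and 0.344% to 0.541% in mild EAE mice, 3.70 times as high. Of 23 footprinted members, 10 had every mild EAE mouse above every naïve mouse and none the reverse. Ctsa, a protective protein of lysosomal enzymes, had 0, 4 and 2 footprints against 10, 7 and 3, Lgmn, an asparaginyl protease, 1, 2 and 3 against 8, 7 and 3, and Npc2, which carries cholesterol out of lysosomes, none against 2, 1 and 4. Psap, the precursor of the saposins, overlapped with 3, 2 and 6 against 5, 1 and 3.

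Interferon response genes had 3, 1 and 3 footprints in naïve mice and 22, 26 and 8 in mild EAE mice. As a share this was 0.0148% ± 0.0074 against 0.122% ± 0.036 (SD, n = 3). Of 32 listed genes 15 were footprinted in some mouse, and 2 of these had every mild EAE mouse above every naïve mouse. One was Stat2, a transcription factor of interferon signalling, with 2, 0 and 0 footprints against 7, 7 and 2. Gbp5, an interferon-induced GTPase, had 1 and 5 in mild EAE mice 1 and 2 and none elsewhere.

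Antigen presentation genes were mixed. The MHC class II genes Cd74, H2-Aa and H2-Ab1 were in the mild EAE set, H2-Aa with 4, 4 and 1 footprints and H2-Ab1 with 4, 2 and 1. Other class II genes were not, as H2-Eb1 had 1, 5 and 0 in mild EAE mice and H2-DMa 1 footprint in naïve mouse 2 alone. Of the class I genes, H2-D1 had 2, 6 and 1 in naïve mice and 1, 0 and 2 in mild EAE mice, H2-K1 0, 7 and 1 against 1, 2 and 1, and H2-T23 0, 1 and 0 against 5, 0 and 1. No test between the classes was made. As a whole the list overlapped between groups, at 0.0194%, 0.178% and 0.0374% against 0.271%, 0.128% and 0.249%. Class I genes are near copies of one another, so their single values are uncertain.

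Markers of other cells were unevenly present. The T and B cell markers Cd3d, Cd3e and Cd4 and the 5 others of that list were at 0 in all 6 mice. In the wider list of 27 lymphocyte genes the mild EAE share rested mainly on Cd74. Ighm had 0, 1 and 0 footprints in naïve mice and 2, 0 and 0 in mild EAE mice, and Ikzf1 had 1 in mild EAE mouse 1 alone. Of 6 fibroblast and meninges markers, 4 were footprinted, and they took 0%, 0.0445% and 0.0187% in naïve mice and 0.132%, 0.198% and 0.181% in mild EAE mice. Col1a1, a chain of type I collagen, had 0, 5 and 0 footprints against 9, 20 and 7, Col3a1 had 0, 0 and 3 against 6, 10 and 2, and Lum and Pdgfra were at 0 throughout. Schwann cell markers had none in naïve mice and 4, 7 and 1 in mild EAE mice, with 3 of 5 markers at 0 in every mouse. Endothelial markers had 1, 32 and 20 against 0, 11 and 0, and the highest of them was Flt1, a receptor for vascular endothelial growth factor, with 1, 21 and 15 against 0, 9 and 0. Skeletal muscle markers had 1 footprint over all 6 mice. How far these cells account for the gene-level differences was not tested.

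Neurons and oligodendrocytes, the cells that define spinal cord, were represented in every mouse. The 12 neuron markers took 0.214%, 0.210% and 0.168% of in-gene footprints in naïve mice and 0.110%, 0.0970% and 0.136% in mild EAE mice, without overlap. Of the 11 footprinted, 2 had every mild EAE mouse below every naïve mouse and 1 the reverse. The median difference of the 9 tested was -0.02 on the log2 scale, so the lower sum rested on a part of the markers. The 8 oligodendrocyte markers took 0.272%, 0.108% and 0.262% against 0.198%, 0.181% and 0.249%, with overlap.

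Genes of synaptic adhesion, most of them among the longest of the genome, took 5.17%, 3.07% and 2.63% of in-gene footprints in naïve mice and 0.768%, 2.12% and 2.18% in mild EAE mice, a mean of 0.466 times the naïve share. Of 30 footprinted members 12 had every mild EAE mouse below every naïve mouse and none above. The median difference of the 29 tested members was -1.14 on the log2 scale, beside 0.03 over all tested genes, and none passed the threshold. Csmd1, a membrane protein with complement-control domains, had 43, 38 and 26 footprints in naïve mice and 5, 29 and 13 in mild EAE mice. Lsamp and Cntnap2, adhesion molecules of neurons and axons, overlapped between groups, with 193, 86 and 70 against 10, 100 and 42 and with 62, 30 and 18 against 4, 36 and 9. On exon-touching footprints alone the list no longer separated the groups, at 0.935%, 0.663% and 0.693% against 0.433%, 0.745% and 0.761%.

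Receptors for glutamate, GABA and glycine separated the groups in the same direction, with 1.11% ± 0.20 in naïve mice and 0.624% ± 0.207 in mild EAE mice (SD, n = 3). In 7 of 29 footprinted members every mild EAE mouse was below every naïve mouse. Gria4, an AMPA receptor subunit, had 31, 13 and 20 footprints against 5, 15 and 5. Grin1, the shared NMDA receptor subunit in a gene of 28 kb by comparison, had 11, 7 and 11 against 12, 8 and 9. Voltage-gated ion channel genes took 0.865% ± 0.109 against 0.560% ± 0.133. Both lists overlapped between groups when only exon-touching footprints were used.

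Regulators of neuronal splicing were lower in mild EAE mice on exons as well. Their share was 0.881%, 0.686% and 0.718% in naïve mice and 0.380%, 0.542% and 0.408% in mild EAE mice, and with exons alone 0.406% ± 0.020 against 0.294% ± 0.052 (SD, n = 3). Rbfox1, which reads GCAUG elements beside neuronal exons, had 66, 43 and 49 footprints against 9, 46 and 15. Elavl4 belongs to the list and to the naïve set.

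Synaptic vesicle and neuronal cytoskeleton lists overlapped between groups. Unc13a, which primes synaptic vesicles, had 23, 5 and 19 footprints in naïve mice and 20, 23 and 7 in mild EAE mice. Dst, a cytolinker of the spectraplakin family, had 87, 32 and 71 against 66, 87 and 61, and Sptan1, alpha spectrin, 37, 25 and 40 against 43, 32 and 29. Myelin and oligodendrocyte genes overlapped as well, at 0.496% ± 0.176 against 0.623% ± 0.074, with Mbp, myelin basic protein, at 26, 9 and 25 against 3, 18 and 5. Olig2 and Opalin, genes of the oligodendrocyte lineage, were in the naïve set with 1 footprint in each naïve mouse. Each thus rested on 3 footprints in all.

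Of the lists of RNA and protein metabolism, those of cytosolic ribosomal proteins and hnRNPs separated the groups. Ribosomal protein genes took 0.434%, 0.349% and 0.643% in naïve mice and 0.885%, 0.688% and 0.952% in mild EAE mice. Every mild EAE mouse was above every naïve mouse in 12 of the 74 footprinted members. Rpl17, Rpl28, Rpl10a, Rpl32 and Rps26 were among those in the mild EAE set. These genes have many processed pseudogenes, so a footprint may belong to a copy. The hnRNP list took 0.291% ± 0.074 against 0.464% ± 0.060 (SD, n = 3). Within it Hnrnpab, a relative of hnRNP D, had none in naïve mice and 2, 4 and 4 in mild EAE mice, and Hnrnpu, a nuclear scaffold protein, had 5, 5 and 8 against 8, 13 and 8. Neither list separated the groups on exons alone, at 0.718% ± 0.153 against 1.02% ± 0.198 and at 0.444% ± 0.116 against 0.555% ± 0.031.

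Astrocyte genes took 0.390% ± 0.140 in naïve mice and 0.666% ± 0.161 in mild EAE mice without overlap, but overlapped on exons alone. Serpina3n and Lcn2, a protease inhibitor and a lipocalin of reactive astrocytes, were in the mild EAE set with 3, 5 and 1 and with 2, 2 and 1 footprints. Gfap, the intermediate filament of astrocytes, had 0, 2 and 7 in naïve mice and none in mild EAE mice, against the direction of its list. Respiratory chain genes stood at 0.239% ± 0.053 against 0.325% ± 0.009, with Cox5b and Cox6c, subunits of cytochrome c oxidase, in the mild EAE set, and they overlapped on exons alone. In the SR splicing factor list, which overlapped, Tra2b and Srsf10 were in the mild EAE set with 2, 4 and 1 and with 2, 2 and 2 footprints. Glycolysis, translation factor, heat shock chaperone and long noncoding RNA lists overlapped too, and Pantr1 of the last list was in the naïve set with 1 footprint in each mouse.

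**Figure D4:**
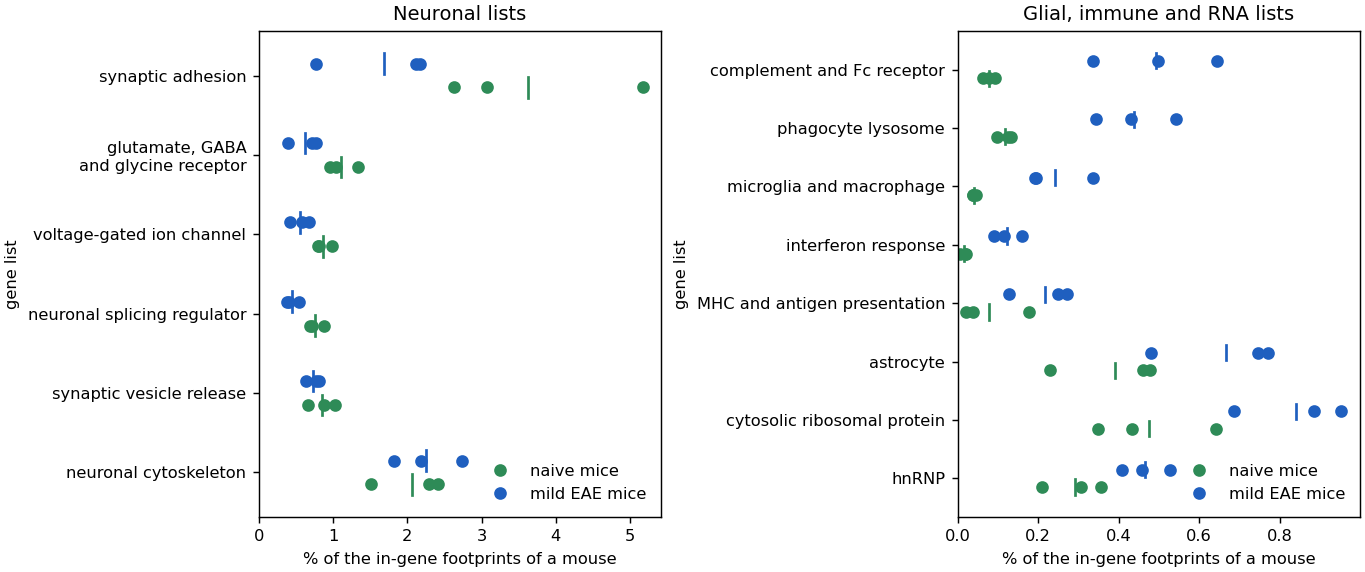
Share of each mouse's in-gene footprints (horizontal axes, %, on different scales) in gene lists (vertical axes), 1 point per mouse and a line at the group mean of 3. Synaptic adhesion genes lie at 2.63% to 5.17% in naïve mice and 0.768% to 2.18% in mild EAE mice, and complement genes lie at 0.064% to 0.094% against 0.335% to 0.644%.

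The severe EAE mice, which had no part in the choice of the 2 sets, were read last. Their lists were of very different length, with 2670, 31870, 209 and 673 footprints in severe EAE mice 1 to 4. Of the 146 mild EAE genes they footprinted 30 (20.5%), 124 (84.9%), 2 (1.37%) and 20 (13.7%). Of the 95 naïve genes they footprinted 4 (4.21%), 49 (51.6%), 0 and 0. Genes that were also footprinted in 3 of the 6 mice, but in both groups, numbered 1421, and 12.8%, 70.7%, 0.563% and 3.10% of them were footprinted. In each severe EAE mouse the mild EAE genes thus stood above these genes and the naïve genes below, though severe EAE mouse 3 rests on 2 genes. The sets differ in gene span and exon content, and the part of these in the order was not tested. Severe and mild EAE mice may also share the IgG pool of EAE mice as background, which was not tested either.

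By gene, Abca1 had 17 footprints in severe EAE mouse 2 and none in the others, and Csf1r had 1, 13, 0 and 1. Cpne9 and Eng had none in any of the 4 mice, also not in mouse 2 with the longest list of all. Rhoq had 9 footprints in severe EAE mouse 2.

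**Figure D5:**
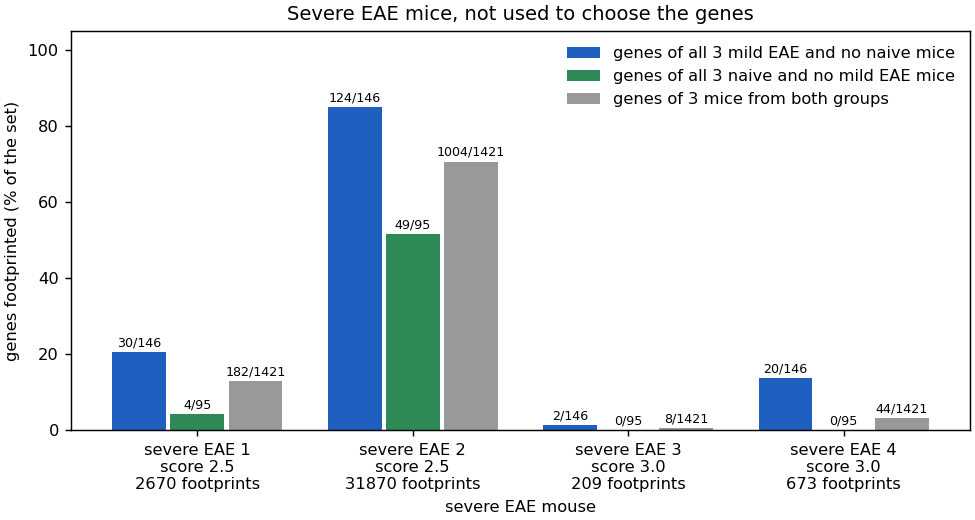
Share of each gene set (vertical axis, %) that was footprinted in each severe EAE mouse (horizontal axis, with its clinical score and footprint number), as bars with the gene counts above them. The blue bars (mild EAE genes) are the highest and the green bars (naïve genes) the lowest in all 4 mice, from 84.9% against 51.6% in mouse 2 to 1.37% against 0 in mouse 3.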

How the data were processed

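Spinal cord hnRNP A1 CLIPseq of 3 mild EAE and 3 naïve mice was used, with 4 severe EAE mice held out. The authors trimmed reads (bcl2fastq 2.19.0.316, fastp), assembled them with rnaSPAdes, aligned contigs to GRCm38 (minimap2 2.17, spliced), subtracted matched input and pooled IgG sites (bedtools) and merged the rest per mouse. The deposited values are start and end positions, without count, score or strand, so what is listed depends on assembly and subtraction. Labels and methods name different antibody clones. Inputs and IgG pools were not analysed here. Nothing says that libraries of a group were prepared together.

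A footprint counted for every GENCODE M21 gene whose span it overlapped by 1 nt or more, on 100336 of 100785 footprints. Shares per 10000 in-gene footprints, log2(share + 1), were compared by limma (lmFit, eBayes with trend) with Benjamini-Hochberg adjustment, and values per mouse by two-sided exact permutation tests. Named genes were, per set, the 12 with the most footprints, the 5 lowest p per direction, and per list the members of the sets and up to 4 with the most footprints, leaving out gene models without a proper name. P2ry12, Tmem119, Aif1, Lum, Pdgfra, H2-Eb1, H2-DMa and H2-T23 were named outside that rule after their values were seen. Results for some genes that the rule names are not reported here. Members and lists were chosen with earlier results of these data known. The listed symbols Spna2 and Norad had no match in the annotation. Code was tested on simulated data. Tools were Python 3.11.15, numpy 2.4.6, scipy 1.17.1, pandas 2.3.3, pysam 0.24.0, matplotlib 3.10.9, R 4.3.3 and limma 3.58.1, with bedtools 2.31.1 and samtools 1.23.1.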

Additional observations from a re-analysis of the deposited data

Results flagged for a closer look

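In the severe EAE mice, 1 animal, mouse 2, lay far from the rest. Its 31870 footprints stood apart from the 209 to 2670 of the other 3 mice, with a gap of 0.922 of the range. For the genes footprinted the gap was 0.832 of the range, and for the percentage of naïve genes footprinted it was 0.918. About 1 in 20 groups shows such a gap by chance. The authors too call this animal an outlier of the severe group, and report that it had been in remission shortly before the end. By their figures its library had the most mapped reads of the immunoprecipitates. Naïve mouse 2 had the fewest, with a list of 17454 footprints. The part of library depth in list length was not tested.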

How the results depend on the processing

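No paired analysis was possible because the mild EAE and naïve mice share no pairing in the labels, where numbers only name an animal. Genes footprinted per mouse differed by -261 (mild EAE minus naïve), by 398 with exon-touching footprints only, and by -1121 to 505 with each mouse left out (173 without naïve mouse 2, 505 without mild EAE mouse 3). The difference in the share of footprints in genes was 0.995 to 2.76 percentage points and that in span -39.8 to -29.0 kb with each mouse left out. The mild EAE set held 92 genes with protein-coding genes only and 42 with at least 2 footprints in each mouse, and 235 to 492 with a mouse left out. The naïve set held 42 with exon-touching footprints only, 14 with at least 2 footprints and 140 to 329 with a mouse left out. limma called 1 gene higher, Abca1 of the mild EAE set, with protein-coding genes only and with exon-touching footprints only, 4 higher and 6 lower with all footprinted genes, 2 higher and 8 lower with genes of at least 5 mice, and 0 to 7 in each direction with a mouse left out. Such calls can come with a larger SE. That of Abca1 was 0.42 in the main fit and 0.59 to 0.61 with a naïve mouse left out, at the same difference. They are therefore no stronger support than the main fit. Without a mild EAE mouse, genes of the mild EAE set seen in no naïve mouse fell under the 3-mouse filter. The share in genes is 100% by construction for exon-touching footprints and for assignment to the closest gene, so these were not run. Of 176 list values, 172 moved by less than the spread between mice. Values of opposite sign numbered 5, in the neuronal cytoskeleton and heat shock chaperone lists, both of which overlapped between groups, and 0 in lists without overlap. The cause was not tested. With 3 mice a group no exact p can fall below 0.1, and the depth of a footprint is unknown.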
